A study of Arabidopsis thaliana with 12 samples.

Results

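The response of the Arabidopsis mutant asr3-1 to flg22 was read from 4 of the 12 RNA sequencing libraries of the series. They are the libraries labelled asr3-1, 2 without flg22 and 2 taken 30 min after it was given, and they were chosen by these labels and paired by the number of the experimental repeat. The levels and differences come from these 4 libraries, whereas the tests take their spread from a fit over all 12. All libraries came from whole seedlings at 10 days of age that had been moved from half-strength Murashige and Skoog plates into water overnight. Each library is a pool, made from the RNA of 2 biological replicates, and p-values measure the spread between such pools, which may be technical in part. The comparison groups were wild type (WT), for which the labels give Col-0, and OX9, a single transgenic line with HA-tagged ASR3 behind the 35S promoter, which is active in most plant tissues. Both stood without and with flg22, again with 2 libraries a group. The design text puts the dose at 100 nM, whereas the treatment protocol writes 100 mM. The labels name the asr3-1 allele but not its lesion. In whole seedlings a change in the number of cells that express a gene and a change of RNA per cell cannot be told apart.

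The peptide flg22 is a conserved stretch of bacterial flagellin. The receptor kinase FLS2 binds it together with the coreceptor BAK1, receptor-like cytoplasmic kinases such as BIK1 are released, calcium enters the cell, an oxidative burst follows and MAP kinase cascades are switched on. Within minutes this changes transcription through WRKY, ERF, MYB and zinc finger factors. Of these families the WRKY proteins bind the W box, the element named after its recognition by them. ASR3 belongs to the trihelix proteins, plant transcription factors that bind GT elements, and the series sets a mutant and an overexpressing line beside wild type.

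6 promoters are printed as examples and do not stand for all genes. They are those of WRKY29, WRKY33 and PROPEP3 as raised genes with W boxes, and of the receptor gene FLS2. The others are AT1G71520 as a strongly raised gene and CAT2 as a lowered gene, both without a W box core. Each sequence is the 250 bases before the gene start, 5′ to 3′ on the strand of the gene, from RefSeq's TAIR10.1. Capitals mark the W box core, TTGAC or GTCAA on the other strand.
WRKY29, chr4:12291382-12291631, plus strand: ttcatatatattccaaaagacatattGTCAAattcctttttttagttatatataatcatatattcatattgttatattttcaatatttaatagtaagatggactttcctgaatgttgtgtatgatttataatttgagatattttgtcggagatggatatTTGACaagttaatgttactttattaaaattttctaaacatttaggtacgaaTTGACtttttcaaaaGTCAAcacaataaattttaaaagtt
WRKY33, chr2:16107985-16108234, plus strand: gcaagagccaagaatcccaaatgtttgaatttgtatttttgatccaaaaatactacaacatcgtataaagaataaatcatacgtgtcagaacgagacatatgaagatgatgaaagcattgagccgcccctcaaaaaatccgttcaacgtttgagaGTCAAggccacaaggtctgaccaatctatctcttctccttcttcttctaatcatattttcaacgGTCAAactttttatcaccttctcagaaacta
PROPEP3, chr5:25939312-25939561, plus strand: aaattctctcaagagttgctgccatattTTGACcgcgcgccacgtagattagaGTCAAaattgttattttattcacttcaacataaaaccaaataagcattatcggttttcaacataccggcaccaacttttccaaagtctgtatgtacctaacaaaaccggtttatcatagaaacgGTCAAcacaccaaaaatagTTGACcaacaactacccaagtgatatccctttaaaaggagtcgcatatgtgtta
FLS2, chr5:18791325-18791574, plus strand: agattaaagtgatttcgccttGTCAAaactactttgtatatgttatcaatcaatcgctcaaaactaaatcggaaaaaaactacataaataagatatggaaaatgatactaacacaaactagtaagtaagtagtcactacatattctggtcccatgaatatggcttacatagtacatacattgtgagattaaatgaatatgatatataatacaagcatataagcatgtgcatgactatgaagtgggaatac
AT1G71520, chr1:26938119-26938368, plus strand: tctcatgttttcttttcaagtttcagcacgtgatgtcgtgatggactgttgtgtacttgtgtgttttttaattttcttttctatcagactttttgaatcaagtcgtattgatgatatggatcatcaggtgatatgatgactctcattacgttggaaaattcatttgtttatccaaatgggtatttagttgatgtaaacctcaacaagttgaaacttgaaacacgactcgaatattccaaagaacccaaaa
CAT2, chr4:16703505-16703754, minus strand: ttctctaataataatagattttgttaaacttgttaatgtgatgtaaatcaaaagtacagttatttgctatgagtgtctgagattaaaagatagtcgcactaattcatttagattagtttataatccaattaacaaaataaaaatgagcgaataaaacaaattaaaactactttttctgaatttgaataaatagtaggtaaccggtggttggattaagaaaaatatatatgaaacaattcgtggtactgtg
WRKY29 and PROPEP3 hold 4 cores each and WRKY33 holds 2, while FLS2 has 1 core that is not followed by C or T.

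Levels are FPKM, that is, sequenced fragments relative to transcript length and to the size of the library. No read counts are given, so depth is not known directly and intervals from counting are not possible. Between 19137 and 19621 genes reached 1 FPKM in a library. MT1A, a metallothionein gene, took 1.46 to 1.78% of all FPKM in every library of repeat 1, but 10.2 to 16.1% in repeat 2. Within the mutant its share was 1.71% without and 1.49% with flg22 in repeat 1, and 12.8% and 16.1% in repeat 2. Differences below are on log2(FPKM + 1), flg22 minus none, with the standard error (SE) and the adjusted p of limma, and a gene is said to have risen or fallen only at an adjusted p under 0.05.

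ASR3 was taken to be AT2G33550, on chromosome 2, 14209982 to 14211693, minus strand. The annotation calls this gene a homeodomain-like protein without that name, and the identity rests on general knowledge of the gene and on its high level in OX9. In asr3-1 it stood at 6.58 and 2.50 FPKM without flg22 and at 2.53 and 3.44 FPKM with it, against 6.24 to 9.59 FPKM in the 4 WT libraries and 384 to 590 FPKM in OX9. The mutant library without flg22 of repeat 1 lay inside the WT range and the other 3 below it. The log2 differences from WT were -0.76 without and -1.08 with flg22 (SE 0.32 for both, adjusted p = 1 for both). The adjustment runs over all 20753 genes, a strict bar for 1 targeted gene. A lower level of the transcript was thus neither shown nor excluded. Its response to flg22 in the mutant was -0.38 (SE 0.32, adjusted p = 0.602), and the sign turned to 0.074 without the untreated library of repeat 1 and to 0.033 without the treated library of repeat 1.

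In asr3-1, 330 of 20753 genes rose and 46 fell after flg22, 1.59% and 0.222% of the genes tested. The rises were large and the falls small. The 330 raised genes had a median log2 difference of 2.27, and 195 of them were at 2 or more and 70 at 4 or more. Of the 46 lowered genes 6 were at -1 or below and none at -2, with a median of -0.68. Both treated libraries lay above both untreated ones for 322 of the raised genes and below them for 31 of the lowered ones, against 3055 and 2982 of all 20753 genes tested. These counts rest on the pairing by repeat, on each library and on a spread taken from all 12 libraries. The 4 asr3-1 libraries alone, with the replicate block, gave 0 raised and 0 lowered genes. Without the replicate block 40 genes rose and 0 fell (0.193% and 0%; 1631 genes at an unadjusted p under 0.05, against 3873 with it). Leaving out a library gave 25 raised and 1 lowered (untreated, repeat 1), 15 and 0 (untreated, repeat 2), 26 and 1 (treated, repeat 1) or 2 and 0 (treated, repeat 2). After quantile normalization, which moved the median of all genes from -0.04 to -0.15, 419 rose and 177 fell.

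The response was larger in repeat 2 than in repeat 1 for 267 of the 330 raised genes (80.9%), with medians of 2.54 and 2.01. Over all genes tested 51.0% had the higher value in repeat 2. The lowered genes had medians of -0.68 in repeat 1 and -0.78 in repeat 2. The 2 repeats also differ in MT1A, as given above, and the part of that difference in the size of the response was not tested.

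**Figure D1:**
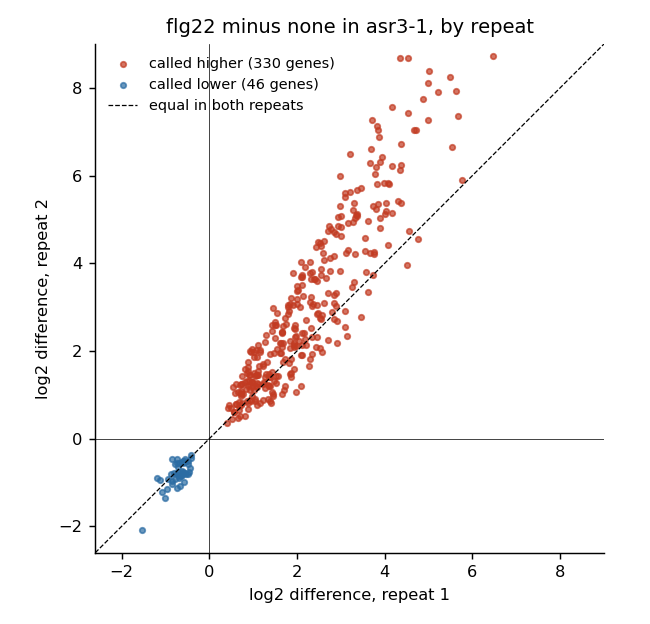
Log2 difference between flg22 and none in repeat 1 (x axis) and repeat 2 (y axis) for the genes called in asr3-1, raised in red and lowered in blue, 1 point a gene, with a dashed line at equal values. Most red points lie above the line (267 of 330), and the blue points lie close to the origin.

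The usual early readouts of flg22 were high in both treated libraries of the mutant, and 3 of 8 passed the test. WRKY29 (AT4G23550), a factor downstream of the MAP kinases, went from 17.1 and 17.2 FPKM to 105 and 119 FPKM (log2 2.64, SE 0.28, adjusted p = 0.012). Its 4 values show next to no spread within a condition. WRKY33 (AT2G38470), which controls camalexin synthesis, went from 17.4 and 35.5 to 184 and 1189 FPKM (4.18, SE 0.71, 0.046). NHL10, listed under the name YLS9 (AT2G35980), went from 3.48 and 9.62 to 16.2 and 30.9 FPKM (1.76, SE 0.23, 0.022). The other 5 did not pass. FRK1, a receptor kinase gene used as a reporter of this pathway, stood at 1.45 and 3.86 FPKM and then at 71.4 and 18.5 FPKM (3.45, SE 0.95, 0.117). FRK1 was thus higher in repeat 1, where most raised genes were higher in repeat 2. CYP81F2, an enzyme of indole glucosinolate synthesis, stood at 4.45 and 2.22 and then at 102 and 661 FPKM (5.97, SE 1.21, 0.060). MYB51 (4.34, 0.078), WRKY53 (3.63, 0.138) and PHI-1 (2.58, 0.116) were the remaining ones, and in each both treated libraries lay above both untreated ones.

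**Figure D2:**
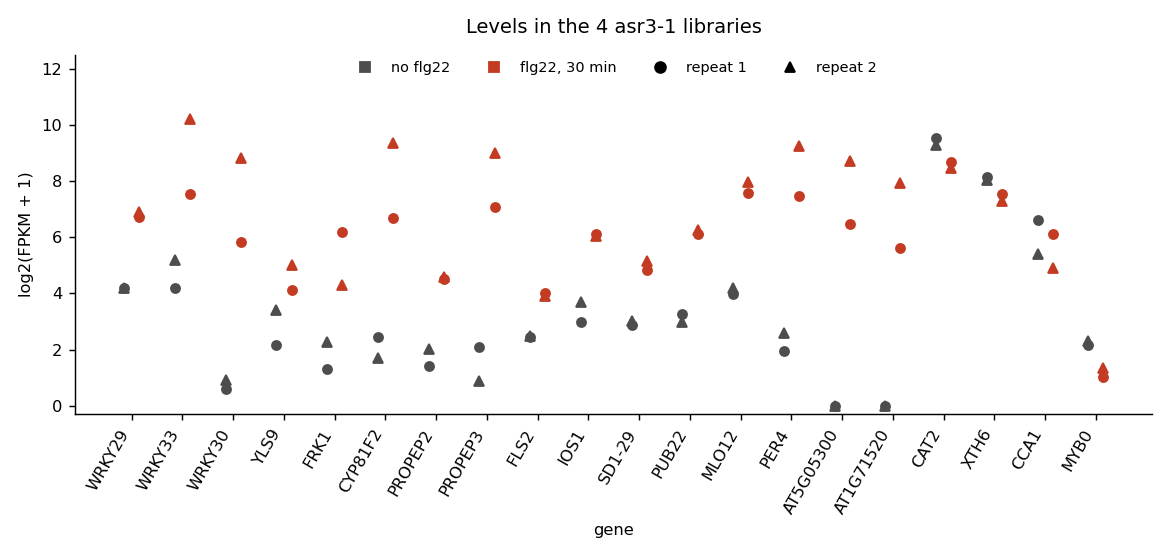
Level of 20 genes as log2(FPKM + 1) in the 4 asr3-1 libraries, grey without and red with flg22, circles for repeat 1 and triangles for repeat 2. The red points lie above the grey ones for the 16 genes on the left, and FRK1 is the one of them with a clearly lower triangle; CAT2, XTH6 and MYB0 lie lower with flg22, and CCA1 does so within each repeat.

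2 of the genes with the largest rises were listed at 0 in both untreated libraries, so no fold is given for them. AT5G05300, which the annotation calls uncharacterized, was at 87.1 and 423 FPKM with flg22 (adjusted p = 0.012). AT1G71520, an AP2/ERF-type DNA-binding protein, was at 48.4 and 243 FPKM (adjusted p = 0.0080). The next were PP2-B14, a phloem protein of the lectin type (log2 6.87), AT1G56242 (6.70), AT1G56060, a small cysteine-rich membrane protein (6.60), WRKY30 (6.57), the elicitor peptide precursor gene PROPEP3 (6.54), TDR1, another AP2/ERF-type protein (6.51), AT5G11140, a phospholipase-like protein (6.51), AT3G02840, an ARM repeat protein (6.31), AT3G29000, a calcium-binding EF-hand protein (6.13), and the peroxidase PER4 (6.09). Adjusted p lay between 0.022 and 0.044 for these 10. AT1G56242 is a noncoding RNA that lies over another gene on the opposite strand, and since the strand of the reads is not stated its reads may belong to either gene. PER4 is an example of the size of these changes, from 2.82 and 5.08 FPKM to 177 and 606 FPKM.

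Signal peptides carry danger and growth signals between cells. Of 11 measured members 3 rose (27.3%) and none fell, with a median of 0.56 against -0.04 over all genes tested. For this list and those below, the shares over all genes tested were 1.59% raised and 0.222% lowered, with 9005 of 20753 genes above 0. All lists were written with earlier results of these data known, which may favour members that respond. Their shares therefore describe the lists and are no test of a family. PROPEP2, which gives rise to a Pep peptide that amplifies immunity through the PEPR receptors, went from 1.69 and 3.07 to 21.9 and 23.0 FPKM (2.82, SE 0.23, adjusted p = 0.0053). PROPEP3, its relative, went from 3.29 and 0.859 to 135 and 511 FPKM (6.54, SE 1.09, 0.044), the largest difference on this list. PSK2, a precursor of the growth peptide phytosulfokine, went from 7.13 and 2.34 to 40.0 and 15.6 FPKM (2.32, SE 0.22, 0.0083). PSK4, another phytosulfokine precursor, was at 168 and 133 and then at 332 and 259 FPKM (0.97, 0.103). RALF23, a peptide that dampens immune receptor complexes, had the lowest value, -0.63 (adjusted p = 0.10).

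Among 28 measured pattern receptors and coreceptors 4 rose (14.3%), none fell and 22 were above 0, with a median of 1.52. Of all genes tested 1.59% rose, and 9005 of 20753 were above 0. The median was 0.79 in repeat 1 and 2.18 in repeat 2. FLS2 itself went from 4.44 and 4.60 to 15.2 and 14.1 FPKM (1.5, SE 0.21, adjusted p = 0.026). IOS1, a malectin-like receptor kinase that associates with FLS2 and BAK1, went from 6.88 and 11.9 to 68.1 and 64.5 FPKM (2.74, SE 0.32, 0.013). SD1-29, also called LORE, the kinase through which Arabidopsis senses bacterial 3-hydroxy fatty acids, went from 6.41 and 7.07 to 27.2 and 34.7 FPKM (2.04, SE 0.19, 0.0082). AT4G08850, a leucine-rich repeat receptor kinase, rose as well (2.40, 0.046). In these first 3 receptors both treated libraries lay well above both untreated ones, which their choice by small adjusted p favours. Of all 20753 genes tested 3055 had both treated libraries above both untreated ones. The chitin receptors LYK5 (3.31, 0.11) and CERK1 (1.98, 0.065), the EF-Tu receptor EFR (1.90, 0.073), BAK1 (1.60, 0.088) and the Pep receptor PEPR1 (1.76, 0.25) did not pass. SERK1 and SERK2, relatives of BAK1, were at -0.05 and -0.20.

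Single genes of the steps below the receptors passed as well. Of 13 receptor-like cytoplasmic kinases and oxidases 1 rose (7.69%, against 1.59% of all genes tested), with a median of 1.08. It was PBL1, a close relative of BIK1, from 16.9 and 17.8 to 33.0 and 43.2 FPKM (1.08, SE 0.13, adjusted p = 0.014). BIK1 itself was at 12.7 and 16.9 and then at 45.2 and 171 FPKM (2.51, 0.059). Of 20 calcium channels, pumps, sensors and kinases 2 rose (10.0%), with a median of 1.03. They were CML42, a calmodulin-like sensor (3.17, 0.042), and AT5G39670, an EF-hand protein (4.81, 0.048), while the sensor CML37 (5.26, 0.060) did not pass. Other calcium-binding proteins, not on the list, also rose: AT3G29000 (above) and, chosen after their values were seen, AT3G01830 (5.97, 0.048), AT1G21550 (1.48, 0.035), the calcineurin B-like sensor CBL1 (1.47, 0.047) and the calmodulin CAM3 (0.94, 0.047). CNGC4, a cation channel subunit, had the lowest adjusted p on the negative side of that list (-0.48, 0.081).

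All 14 MAP kinase cascade genes of the list were above 0 with a median of 1.15, and 0 of them passed the test. Of all 20753 genes tested 9005 were above 0, and 1.59% rose. MPK3 was at 78.5 and 96.1 FPKM and then at 299 and 1944 FPKM (3.12, SE 0.73, adjusted p = 0.085). Its upstream kinase MKK4 gave 2.59 (0.115), and MPK5 and MKK9 gave 1.63 (0.116) and 1.19 (0.126). Outside the list, and chosen after its value was seen, MAPKKK15, a kinase of the first tier of such cascades, rose by 2.42 (0.0045). Of 10 MAP kinase phosphatases and VQ proteins 1 rose, the VQ-motif protein gene AT3G22160 (2.21, SE 0.39, 0.048). The list holds only some VQ proteins, and 4 others rose, again named after their values were seen: AT2G22880 (5.87), AT1G78410 (4.85), AT1G17147 (3.99) and AT4G20000 (2.999), with adjusted p between 0.026 and 0.048. The phosphatase genes MKP1 and MKP2 were at 0.49 and -0.42 (0.143 and 0.182). Ubiquitin ligases of the PUB and ATL families, several of which limit immune signalling, were above 0 in 10 of 10 members. Of these 10 ligases 4 rose (40.0%, median 2.84). PUB22 went from 8.58 and 6.85 to 68.0 and 75.1 FPKM (3.06, SE 0.29, 0.0082). PUB23 (3.73, 0.049) and PUB24 (4.05, 0.042), which act redundantly with it, rose too, as did CNI1, also called ATL31 (4.52, 0.041).

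**Figure D3:**
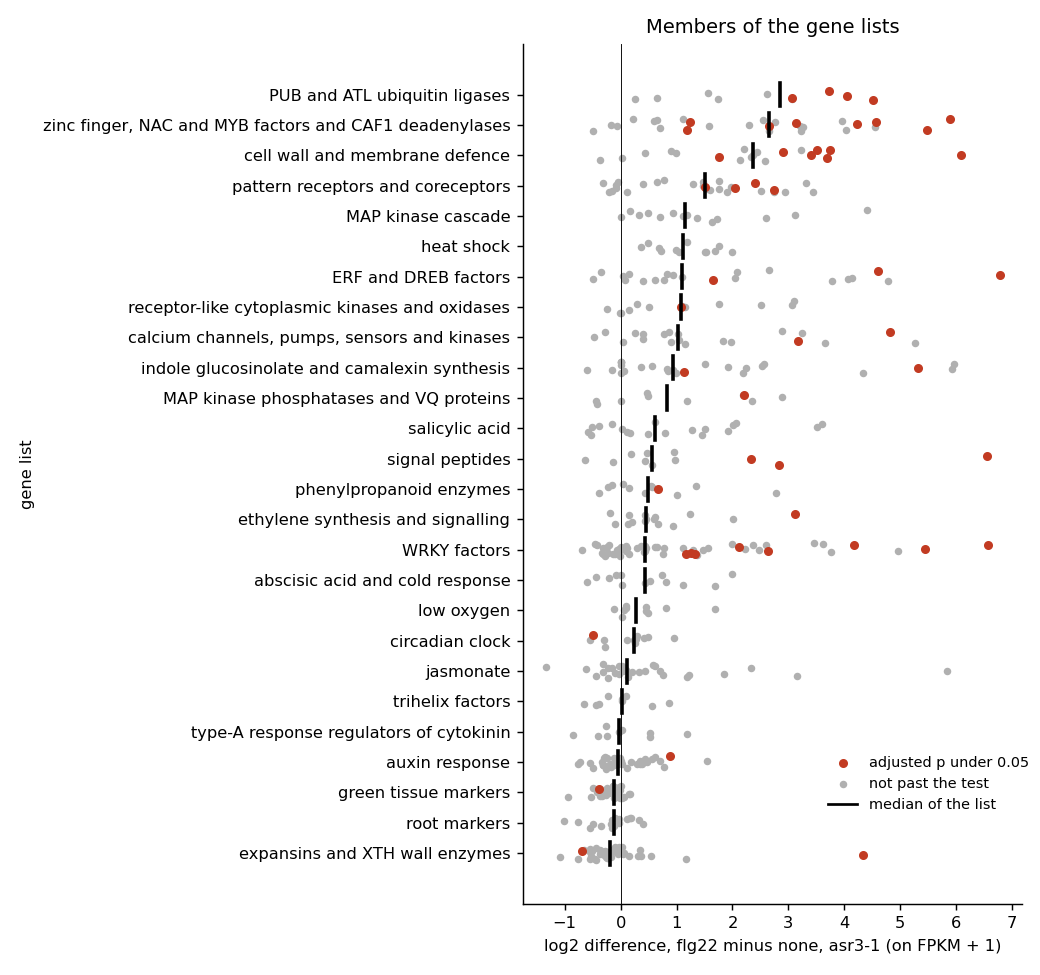
Log2 difference between flg22 and none in asr3-1 (x axis) for each tested member of 26 gene lists (y axis), with genes at an adjusted p under 0.05 in red and list medians as black bars. Ubiquitin ligases (median 2.84), zinc finger, NAC and MYB factors (2.64) and wall and membrane defence genes (2.36) lie highest, while tissue markers, auxin genes and expansins lie around 0. The lists were chosen with earlier results of these data known.

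Several families of transcription factors held raised genes. Of 57 WRKY factors 8 rose and none fell, and 40 were above 0 with a median of 0.44. Besides WRKY29, WRKY33 and WRKY30 they included WRKY7, a calmodulin-binding member, from 23.4 and 16.1 to 50.7 and 40.5 FPKM (1.18, adjusted p = 0.027), WRKY6, known from senescence (2.12, 0.030), and WRKY25, a close relative of WRKY33 (1.33, 0.036). WRKY30 went from 0.513 and 0.881 to 55.5 and 451 FPKM. Of 21 ERF and DREB factors 3 rose (14.3%, median 1.09). They were AT1G71520, ERF-1, an activator that binds the GCC box, from 18.5 and 11.9 to 49.8 and 47.8 FPKM (1.65, 0.022), and AT5G51190 (4.60, 0.032). Factors of this kind outside the list rose too, TDR1 (above) and, chosen after their values were seen, RAP2.9 (2.97, 0.012) and AT4G32800 (1.13, 0.026). ERF6, a substrate of MPK3 and MPK6, gave 4.78 (0.055). Of 27 zinc finger, NAC and MYB factors and CAF1 deadenylases 8 rose (29.6%, median 2.64). The C2H2 zinc finger repressors ZF1, also called AZF1 (2.65, 0.0083), ZF3, also called AZF3 (1.24, 0.012), STZ, also called ZAT10 (4.57, 0.022), and ZAT11 (5.88, 0.029) had the smallest adjusted p. ZF1 went from 5.19 and 3.96 to 33.2 and 34.4 FPKM, and ZAT11 from 3.38 and 4.06 to 114 and 669 FPKM.

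Of 19 cell wall and membrane defence genes 7 rose (36.8%, against 1.59% of all genes tested), with a median of 2.36. AT1G14550, a peroxidase next to PER4, had the smallest adjusted p of all genes tested, from 0.671 and 0.101 to 21.2 and 13.7 FPKM (3.73, SE 0.19, 0.0020). MLO12, a membrane protein related to the barley mildew factor Mlo, went from 14.9 and 17.2 to 189 and 252 FPKM (3.69, SE 0.27, 0.0044). EP3, a chitinase, went from 17.8 and 16.2 to 147 and 242 FPKM (3.40, SE 0.36, 0.012). In all 3 the groups were far apart compared with the spread within each. They were named for the smallest adjusted p on this list, which favours such a gap. Of 42 expansins and XTH enzymes, which loosen and remodel the wall, 1 rose and 1 fell, 2.38% each. Over all genes tested the shares were 1.59% and 0.222%. XTH18 rose from 24.8 and 37.4 to 252 and 1593 FPKM (4.33, 0.048), and XTH6 fell from 284 and 265 to 186 and 154 FPKM (-0.69, 0.035). That list had a median of -0.20, with 20 members below 0 in both repeats. It does not hold every such enzyme. Chosen after their values were seen, TCH4, an XTH enzyme counted above with the wall and membrane genes (2.91, 0.048), and XTR6 (2.18, 0.044) rose too.

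Of 25 genes of indole glucosinolate and camalexin synthesis 2 rose (8.0%, against 1.59% of all genes tested), with a median of 0.93. TSA1, the alpha subunit of tryptophan synthase, went from 67.4 and 43.5 to 142 and 102 FPKM (1.14, SE 0.13, adjusted p = 0.012). AT1G26380, an FAD-binding berberine-type oxidase, went from 1.04 and 1.07 to 41.4 and 157 FPKM (5.32, SE 0.85, 0.040). TSB1, the beta subunit of tryptophan synthase, did not pass (1.91, 0.0502). Of 12 phenylpropanoid enzymes 1 rose (8.33%, median 0.49). It was C4H, cinnamate 4-hydroxylase, from 201 and 94.7 to 321 and 150 FPKM (0.66, SE 0.08, 0.014), whose untreated library of repeat 1 lies above its treated library of repeat 2, while the difference within a repeat was 0.67 and 0.66. PAL1, the entry enzyme of the pathway, gave 1.35 (0.056).

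Across the 5 hormone lists 2 of the measured genes rose, 1 of 15 on the ethylene list (6.67%) and 1 of 39 on the auxin list (2.56%). On the other lists 0 of 19 salicylic acid, 0 of 28 jasmonate and 0 of 13 abscisic acid and cold genes rose. Over all genes tested 1.59% rose, and whether hormone genes rose more often than others was not tested. Of 19 salicylic acid genes 0 passed, with a median of 0.62 and 14 above 0, against 9005 of all 20753 genes tested. CBP60G, an activator of salicylic acid synthesis, was at 3.20 and 7.67 and then at 33.4 and 155 FPKM (3.60, adjusted p = 0.056), and the synthesis gene EDS16, also called ICS1, gave 0.79 (0.154). Of 28 jasmonate genes 0 passed, and the median of 0.12 turned to -0.09 after quantile normalization. LOX4, a lipoxygenase, gave 5.83 (0.067) and the repressor gene JAZ7 gave -1.34 (0.143). Of 15 ethylene genes 1 rose, ACS7, which makes the ethylene precursor, from 1.75 and 1.91 to 29.4 and 18.9 FPKM (3.12, SE 0.41, 0.022). Of 39 auxin genes 1 rose, the repressor gene IAA2 (0.88, SE 0.16, 0.0496), with a median of -0.04, as over all genes. None of 13 abscisic acid and cold genes passed. The phosphatase ABI1, a negative regulator of abscisic acid signalling, was nearest (0.81, 0.053).

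None of the 12 listed heat shock genes passed, all 12 were above 0 with a median of 1.12, and the median was 2.03 in repeat 1 but 0.34 in repeat 2, the reverse of the order seen for the raised genes. HSP70 shows it, at 18.1 and 15.2 FPKM without and at 117 and 20.8 FPKM with flg22 (1.52, SE 0.52, adjusted p = 0.182). Heat shock genes outside the list did rise: Hsp70-2 (1.96, 0.010), the HSP20-like AT1G59860 (2.70, 0.043) and the DNAJ-type AT2G20560 (1.46, 0.012), chosen after their values were seen. None of 10 low-oxygen genes passed (median 0.28). Of 12 clock genes CCA1, a morning factor, fell from 96.9 and 41.2 to 68.8 and 28.6 FPKM (-0.50, SE 0.09, 0.049). Its repeats differ by more than its treatments, and LHY, its partner, gave -0.55 (0.063). None of 9 type-A response regulators, which are induced by cytokinin, and none of 9 trihelix factors passed. The trihelix median was 0.02, or -0.05 after quantile normalization. Of 40 green tissue markers LHCB2.2, an antenna protein, fell from 2981 and 3569 to 2252 and 2755 FPKM (-0.39, SE 0.07, 0.046), but it has a near-identical copy, LHCB2.1 (-0.37, 0.10), and the counting of reads shared by both is not stated in the sources used here. The green list had a median of -0.12 and 6 members above 0, and the 17 measured root markers a median of -0.12 with none past the test. Both sets of markers were present in all 4 libraries, as the label of whole seedlings states. Root markers summed to 304.3 and 219.7 FPKM without and 215.9 and 222.4 FPKM with flg22. Their part in the falls was not tested.

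Of the 46 lowered genes 3 stood in the lists above, which hold 531 tested genes, against 0.222% lowered over all genes. CAT2, the main leaf catalase, which removes hydrogen peroxide, was the most abundant among the 12 largest, from 746 and 617 to 406 and 353 FPKM (-0.84, SE 0.10, adjusted p = 0.016). Both treated libraries lay well below both untreated ones, which was part of the rule that named these 12. SQP1, an FAD-binding oxidoreductase, went from 15.2 and 17.9 to 7.03 and 6.45 FPKM (-1.18, SE 0.19, 0.037). MYB0, known as GLABROUS1, which starts trichome formation, went from 3.45 and 3.89 to 1.04 and 1.53 FPKM (-1.04, SE 0.19, 0.048). SPL2, a squamosa promoter-binding-like factor, went from 23.1 and 34.1 to 15.2 and 16.8 FPKM (-0.78, SE 0.15, 0.0496). AT1G62835, a transcribed pseudogene per the annotation, had the lowest value, from 1.89 and 3.26 FPKM to being listed at 0 in both treated libraries (adjusted p = 0.046). The other 7 were AT1G52342 (-1.14), AT3G06870, a proline-rich protein (-1.04), AT2G47440, a tetratricopeptide repeat protein (-0.93), AT1G22160 (-0.92), AT1G18773, an acyl thioesterase-like protein (-0.85), AT1G24600 (-0.79) and AT3G29680, an acyltransferase (-0.79), with adjusted p between 0.028 and 0.0499.

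Without the replicate block, WRKY29, AT5G05300, AT1G71520, PER4, PROPEP2, SD1-29, PUB22, ZF1, AT1G14550, MLO12, EP3, AT4G20000 and RAP2.9 still passed among the genes above. The others named as risen or fallen did not, among them WRKY33 (adjusted p = 0.279), PROPEP3 (0.072), FLS2 (0.064) and CAT2 (0.169).

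The response of the mutant was then set beside those of WT and OX9, each with its own untreated libraries and in the same fit. In WT 108 genes rose and 9 fell (0.52% and 0.0434%), and in OX9 10 rose and 0 fell (0.0482% and 0%). Of the 108 genes raised in WT 101 were raised in asr3-1 (93.5% of the WT list and 30.6% of the asr3-1 list), and so were all 10 raised in OX9 (3.03% of the asr3-1 list). Of the 330 genes raised in asr3-1, 328 were above 0 in both repeats of WT and 321 in both repeats of OX9, against 6125 and 5807 of all 20753 genes tested. The medians were 2.27 in asr3-1, 1.94 in WT and 1.44 in OX9. Since these genes were chosen in asr3-1, its own median is favoured. Among the genes chosen in WT the median was 2.64 in asr3-1 and 2.39 in WT, and among the 10 chosen in OX9 it was 3.21 in asr3-1 and 2.71 in OX9. For the 46 lowered genes the medians were -0.68, -0.44 and -0.32.

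**Figure D4:**
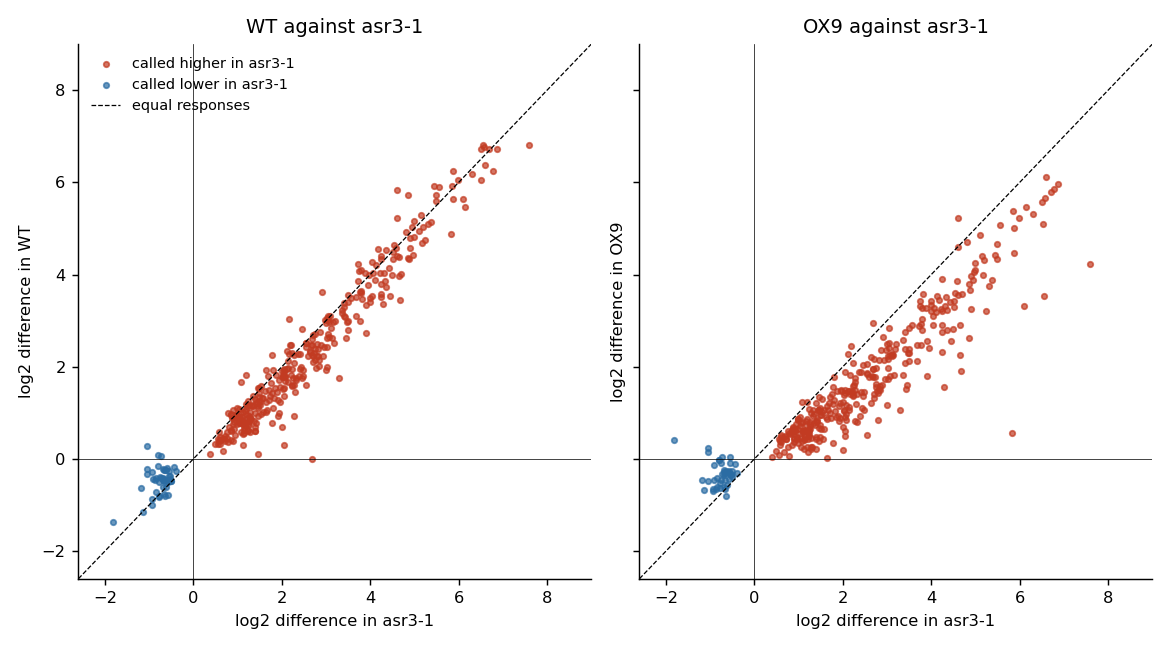
Log2 difference between flg22 and none in asr3-1 (x axis) against that in WT (left) and OX9 (right) for the 330 raised (red) and 46 lowered (blue) genes, with a dashed line at equal responses. The genes were chosen in asr3-1, which favours red points below the line in both panels. The median of the red points was 2.27 in asr3-1, 1.94 in WT and 1.44 in OX9, so they lie nearer the line for WT.

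No gene passed the test of the difference itself. For asr3-1 minus WT 0 genes passed (401 at an unadjusted p under 0.05), and for asr3-1 minus OX9 0 passed (611), with smallest adjusted p of 1 in both. Of genes named above, PROPEP3 gave 6.54 in asr3-1, 6.80 in WT and 3.54 in OX9, and WRKY29 gave 2.64, 2.33 and 1.21. PER4 gave 6.09, 5.63 and 3.31, and MLO12 3.69, 3.51 and 2.13. FLS2 gave 1.5, 1.18 and 0.96, and CAT2 -0.84, -0.42 and -0.41. The difference in response from WT was 0.31 for WRKY29 (SE 0.40) and 0.33 for FLS2 (SE 0.30), and that from OX9 was 1.43 for WRKY29 (SE 0.40) and 0.55 for FLS2 (SE 0.30). These genes are examples, and the order of the genotypes in them is a description. PROPEP3 had its highest value in WT. So did WRKY33 (4.18 in asr3-1, 4.55 in WT and 3.44 in OX9), WRKY30 (6.57, 6.76 and 5.67) and ZAT11 (5.88, 6.24 and 5.01).

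The genes with the smallest p for a difference are named although none passed after adjustment. Against WT they were AT2G18323, AT1G49245 and MIR834 on the higher side (unadjusted p = 0.000177, 0.000245 and 0.000637) and MIR848, AT1G24600 and BGLU34 on the lower side (0.000241, 0.000743 and 0.00117). AT2G18323 was listed at 0 in all 4 WT libraries and at 0, 0, 4.60 and 6.29 FPKM in asr3-1, but in OX9 it stood at 0, 0, 4.52 and 9.79 FPKM, a pattern like that of the mutant. MIR848, a microRNA gene, was listed at 0 in all 4 asr3-1 libraries and at 0 without and 4.79 and 12.8 FPKM with flg22 in WT. BGLU34, a beta glucosidase, was at 4.56 and 21.0 and then at 1.84 and 8.98 FPKM in asr3-1, and at 2.31, 18.8, 3.39 and 21.2 FPKM in WT. Against OX9 the higher side held AT1G51920, AT1G49245 and AT5G03090 (0.00013, 0.000239 and 0.000439). AT1G51920 was at 0, 0, 53.2 and 58.3 FPKM in asr3-1 and at 6.20, 13.1, 6.46 and 28.8 FPKM in OX9, where it was present before flg22. The lower side held AT4G33770, BGLU34 and AT1G62835 (0.000707, 0.00143 and 0.00149).

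The promoters of the raised genes held more W boxes than promoters at large. A W box, TTGACC or TTGACT on either strand, was found in the 250 bases before 57.3% of the 330 raised genes, 28.3% of the 46 lowered ones and 28.6% of the 20685 tested genes with a promoter. At least 2 of them were found in 24.2%, 2.17% and 6.17%. By size of the rise, the share was 65.5% among the 110 largest rises, 60.9% among the 110 in the middle and 45.5% among the 110 smallest. The CGCG box ACGCGT, bound by calmodulin-binding CAMTA factors, was in 5.15%, 0% and 1.82%. The GCC box GCCGCC was in 3.33%, 0% and 1.99%, and the G box CACGTG in 3.94%, 8.70% and 7.16%. The GT box GGTTAA, a core bound by trihelix factors, was in 8.79% of raised, 15.2% of lowered and 15% of all genes. The heat shock element, searched as the blocks GAA, TTC and GAA with 2 free bases between them, was in 1.21%, 0% and 0.406%. These shares are descriptions and no test was run on them.

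**Figure D5:**
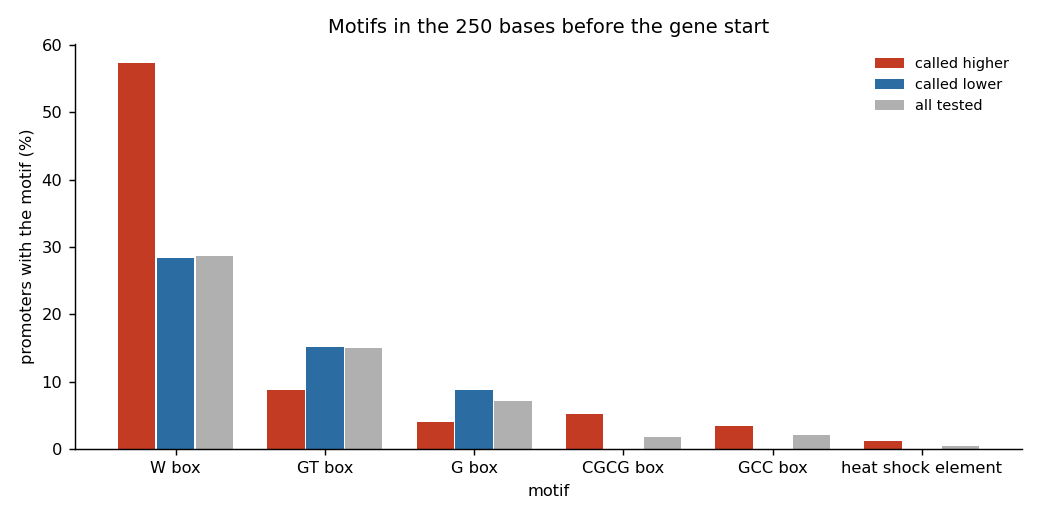
Share of promoters (y axis, %) that hold each of 6 motifs (x axis) in the 250 bases before the gene start, for genes raised in asr3-1 (red), lowered (blue) and all tested (grey). The W box stands out at 57.3% of raised genes against 28.6% of all, and the GT box and G box lie lower among raised genes than among all.

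Some raised genes lay side by side. Of the 330, 54 (16.4%) had a raised gene as an adjacent tested gene, in 25 runs of 2 to 4 genes. While 1.59% of all genes tested rose, the share of all genes with a raised neighbour was not computed. Whether raised genes cluster was therefore not tested. The runs named here were chosen after their values were seen. The longest, on chromosome 1 from 19274604 to 19294612, held AT1G51890 (2.14), AT1G51913 (3.91), AT1G51915 (4.29) and AT1G51920. PER4 and AT1G14550 form a pair of peroxidase genes on chromosome 1 (4974021 to 4980466). SD1-29 closes a run with AT1G61360 (3.20) and AT1G61370 (1.83), and WRKY29 stands beside SGT1A (2.23), a gene of immune receptor assembly. GSTF7 (3.95) and GSTF6 (4.51), glutathione transferase genes, are near-identical copies, so their values are uncertain. In 8 of the 330 the gene overlaps a raised neighbour, and without strand their reads cannot be told apart.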

How the data were processed

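Per the file headers, the authors deposited FPKM, once in a joint table and once sample by sample, and the copies agree within 5e-05 FPKM. TopHat2 2.0.12, Cuffdiff 2.2.1, bcl2fastq 1.8.4, cutadapt 1.0 and the build TAIR10 appear in the submitters' processing notes with no role stated. Per the series' design text reads were single ends of 100 nt; the strand of the reads and the handling of multiply mapped reads are not given in the sources used here. Depth is unknown.

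Of 33373 lines with an identifier, 176 were dropped for 88 repeated identifiers, and 693 lines had none. Of the 33197 identifiers kept, 32722 matched RefSeq locus tags (TAIR10.1), the source of names, positions and promoters. Genes at 1 FPKM or more in at least 2 libraries (20753) were tested on log2(FPKM + 1) with limma 3.58.1 in R 4.3.3 (trend and robust moderation), with means for 6 groups and the repeat number as a block (5 residual degrees of freedom), 2-sided, with Benjamini-Hochberg adjustment over all genes. The fit over all 12 libraries shares 1 estimate of the spread, and the scripts were tested on simulated data. The repeats pair the libraries: per the design text they are independent repeats, and the repeat differences of any 2 groups correlated at 0.568 to 0.805 over genes (15 group pairs).

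Named genes are ASR3, 8 early readouts, the 12 largest rises and falls called with non-overlapping libraries and a mean of at least 1 FPKM, at most 4 members per list by smallest adjusted p, any receptor or signal peptide, and the 3 smallest p each way for differences of response. The 26 lists hold 573 genes, of which 531 were tested; 9 further genes were left out because the annotation gives them no such role. Members and lists were chosen with earlier results of these data known. Alternatives were no replicate block, other pseudocounts (0.1 and 5), no filter or one of 5 FPKM, quantile normalization, plain moderation, fewer libraries and each asr3-1 library left out.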

Additional observations from a re-analysis of the deposited data

Results flagged for a closer look

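A few genes moved one way in both repeats of asr3-1 and the other way in both repeats of another genotype. For each the difference of responses was tested with limma, and none passed (adjusted p = 1 for each). Values are differences of log2 responses, asr3-1 minus the other genotype. Against WT, AT1G49245, a prefoldin-type protein, gave 0.80, AT5G03090 gave 2.40, MIR834 gave 1.65, AT1G24600 gave -0.882 and BGLU34 gave -1.34. Against OX9, AT1G49245 gave 0.803, PSK4 gave 1.16, AT5G03090 gave 2.58, MIR834 gave 0.388, BGLU34 gave -1.30, AT1G62835 gave -2.21 and AT4G33770, an inositol phosphate kinase, gave -0.769. AT1G49245 was at 20.4 and 20.6 FPKM without and 23.7 and 23.4 FPKM with flg22 in asr3-1, at 30.0 and 28.4 and then 18.9 and 18.7 FPKM in WT, and at 29.0 and 29.7 and then 18.5 and 19.2 FPKM in OX9. AT5G03090 was at or below 2.61 FPKM in every asr3-1 library and was listed at 0 in the treated libraries of WT and OX9.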

How the results depend on the processing

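The count of changed genes depends on the processing. Against 330 raised and 46 lowered genes, the fit with no replicate block gave 40 and 0, the 4 asr3-1 libraries alone gave 0 and 0 (limma, 2103 at an unadjusted p under 0.05), and the 8 libraries of asr3-1 and WT with the replicate block, an alternative added after the data were seen, gave 98 and 1. All 40 were among the 330, as were 85 of the 98. A pseudocount of 5 gave 157 and 16, and one of 0.1 gave 71 lowered genes. The lowered count was 23 with no filter on level, 87 with a filter of 5 FPKM, 177 after quantile normalization and 25 without trend and robust moderation; the raised counts of these 4 lay within 1.5 times of 330. Leaving out 1 asr3-1 library gave 2 to 26 raised and 0 to 1 lowered genes, in fits with fewer libraries. For the difference from WT such fits called 0 to 1 genes and for that from OX9 0 to 3, while the other alternatives called 0. Among 140 named genes 72 changed their side of the threshold without the replicate block. Every group holds 1 library of each repeat, so the log2 differences are the same with and without the block. That fit is therefore no test of their direction. ASR3 (AT2G33550) and SERK1 reversed in fits that left out a library. ASR3 went from -0.38 to 0.074 without the untreated and 0.033 without the treated library of repeat 1, in a range of -0.83 to 0.074 over the 4 libraries left out, and SERK1 ranged from -0.23 to 0.14, the latter without the treated library of repeat 1. The cause was not tested. With FPKM alone, counting error at low levels cannot be separated from the spread between pools.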
